A study of Mus musculus with 24 samples.

Results

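Solute carriers are membrane proteins that move amino acids, sugars, ions, metals, vitamins and metabolites across the plasma membrane and the membranes of organelles. The genes described here carry a mouse symbol of Slc and a number and had a mean of at least 2 CPM over all libraries, where CPM is the count of a gene scaled to a common library total. There were 213 such genes among 261 Slc rows of any level and 15736 genes in the table. The remaining 48 rows lay below that level. The genes were thus chosen by a measured value, the mean CPM over all pools, and that level is given only as a description. The 3 genes just inside were Slc30a2 (2.26 CPM), Slc9a7 (2.44 CPM) and Slc35f3 (2.52 CPM), and the 3 just outside were Slc6a4 (1.98 CPM), Slc6a13 (1.95 CPM) and Slc5a7 (1.91 CPM). Of the 213 genes, 205 reached 2 CPM on average in each of the 6 groups and 8 had a group below it. Another 16 Slc genes outside the set reached it in at least 1 group. The symbols covered 43 families, sorted here into 13 classes by cargo, and 5 of the 213 genes are not carriers despite the symbol, among them the scaffold gene Slc9a3r1, the adaptor gene Slc4a1ap and Slc7a6os. They are counted with the rest unless stated.

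Carrier genes set what an epithelium can take up and secrete. In the inner ear they are best known for the potassium-rich fluid of the labyrinth, which depends on sodium, potassium and chloride carriers, and several carriers of glutamate, nucleosides, choline and ions are linked to hearing. Many amino acid and lactate carriers work as dimers with a partner protein, and sodium-coupled carriers run on the gradient made by the sodium pump.

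RNA was sequenced from the epithelium of mouse otocysts, the vesicles that become the inner ear, to find targets of signalling through FGFR2b, a splice form of the fibroblast growth factor receptor FGFR2, at the start of ear morphogenesis. Control embryos (con) were Rosa26rtTA/+, and experimental embryos (R2b) were Rosa26rtTA/+;Tg(tetO-s(dn)Fgfr2b)/+, so both carried the doxycycline-dependent activator rtTA and R2b alone carried the responder that encodes a secreted dominant-negative form of the receptor. The Rosa26 locus drives rtTA broadly and not in the ear alone. All dams received doxycycline, first an injection of 1.5 mg/kg and afterwards chow with 200 mg/kg, on 3 schedules. Doxycycline began at E9.75 and lasted 12 hours (E9.75+12h, the 12-hour exposure), began at E9.25 and lasted 24 hours (E9.25+24h, the 24-hour exposure), or began at E10.25 and lasted 24 hours (E10.25+24h, the late exposure). Embryos were taken at E10.25 on the first pair of schedules and at E11.25 on the last. Epithelia were pooled by genotype within each pregnant female, so 1 pool of each genotype came from each litter, with 3 litters at 12 hours and 4 at each other exposure (22 libraries). The number of embryos in a pool is not given in the sources used here.

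Library totals were 18676615 to 28241583 counts, and over 30 pairs of pools of the same group the spread exceeded counting error (chi-square per degree of freedom 5.48 to 44.2). Reads of Ighg1, the immunoglobulin constant region to which the secreted receptor is fused, checked the labels, together with Fgfr2 itself. Ighg1 counts at 12 hours were 19 to 36 over the con pools but 19414 to 76096 over the R2b pools, and at 24 hours 1 to 5 but 26082 to 42515. Fgfr2 counts were 2682 to 3148 against 14143 to 39649 at 12 hours and 2391 to 3092 against 28103 to 43076 at 24 hours. In the late exposure Ighg1 counts in litter order were 15754, 28, 5106 and 16 where the label was con and 1504, 25248, 23658 and 19155 where it was R2b. In litter 1 of that exposure the reads therefore ran against the labels, and in litter 3 the library labelled con held transgene reads. Results of the late exposure are given with and without those litters. Of the marker lists of other tissues, blood genes had 0 of 9 tested genes called in every exposure, but their summed CPM varied widely between pools. It was 21.8 to 795 in con and 94.9 to 119.9 in R2b at 12 hours, 9.95 to 1631 and 12.7 to 633 at 24 hours, and 164 to 656 and 257 to 4902 in the late exposure, with median log2 fold changes of -1.47, -0.96 and 1.81. Neuron genes had 6 of 11 called higher at 12 hours, where their summed CPM was 307 to 353 in con and 447 to 516 in R2b, and 0 of 11 at 24 hours (215 to 473 against 223 to 249). At 12 hours 1 of 11 mesenchyme and 1 of 5 hindbrain genes rose and 1 of 11 endothelium genes fell, and at 24 hours none of these lists had a call, while the summed CPM of mesenchyme genes was 98.8 to 1456 in con and 115 to 1337 in R2b. Of 13 otic epithelium markers, all in the table, 4 rose and 1 fell at 12 hours and 2 rose and 3 fell at 24 hours. The mitochondrial share of counts was 4.00% to 6.69% at 12 hours and 1.53% to 1.70% at 24 hours. The part of these shifts in the carrier results was not tested. In bulk pools, fewer cells of a type and less RNA per cell cannot be told apart.

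Within both exposures that ended at E10.25, more carrier genes rose than fell in R2b. A gene is called here when its Benjamini-Hochberg adjusted p-value over all genes tested (FDR), from the quasi-likelihood test of edgeR, was under 0.05. A value printed with an FDR is the log2 fold change of R2b against con. The number after its ± is a standard error (SE) derived from that test. It is the size of the log2 fold change divided by the square root of the F statistic. At 12 hours 46 of 213 were called (21.6%), 29 higher and 17 lower, where 20% of all 14882 genes tested were called, 10.20% higher and 9.78% lower. At 24 hours 47 of 212 were called (22.2%), 37 higher and 10 lower, where 15.6% of all 14979 genes were called, 9.09% higher and 6.50% lower. The total share of carriers called at 12 hours was thus near that of all genes. Of the 205 carriers with every group at 2 CPM, 42 were called at 12 hours (27 higher and 15 lower) and 43 at 24 hours (34 higher and 9 lower). The median log2 fold change over the carriers was 0.10 at 12 hours and 0.05 at 24 hours, beside 0.01 and -0.01 over all genes tested. The groups did not overlap in CPM for 91 of 213 carriers at 12 hours and 64 of 212 at 24 hours, where 39.1% and 22.4% of all genes did so. Of the called carriers, 44 of 46 and 47 of 47 had groups apart, and Slc27a1 and Slc22a17 overlapped at 12 hours.

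With a change of at least 1.5-fold required as well, 29 carriers were called at 12 hours and 22 at 24 hours, where 10.6% and 6.12% of all genes were. With the litter as a replicate block, 22 of the 46 carriers called at 12 hours remained and none was added, while at 24 hours all 47 remained and 56 were added, 103 in all (65 higher and 38 lower), where the block called 11.9% and 40.6% of all genes. Leaving out 1 pool, 16 of the 46 were called in every such fit at 12 hours and 17 of the 47 at 24 hours. Leaving out 1 litter, with no block, 5 of the 46 were called in every such fit at 12 hours (Slc6a17, Slc36a2, Slc29a3, Slc1a3 and Slc14a1) and 3 of the 47 at 24 hours (Slc6a17, Slc29a3 and Slc35d2). The number called was lowest without litter 1, at 5 in the 12-hour and 6 in the 24-hour exposure, and was 9 without litter 2 and 21 without litter 3 at 24 hours. Carriers called higher had a median level of 13.9 CPM at 12 hours and 15.04 CPM at 24 hours, and those called lower 39.8 and 49.96 CPM. Among all genes the same medians were 22.8 and 26.4 CPM for higher and 72.7 and 77.1 CPM for lower calls. The exons of 54 carriers overlap those of a gene on the opposite strand, and since the strand setting of the counting is not given in the sources used here, reads of such pairs may not be told apart.

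**Figure D1:**
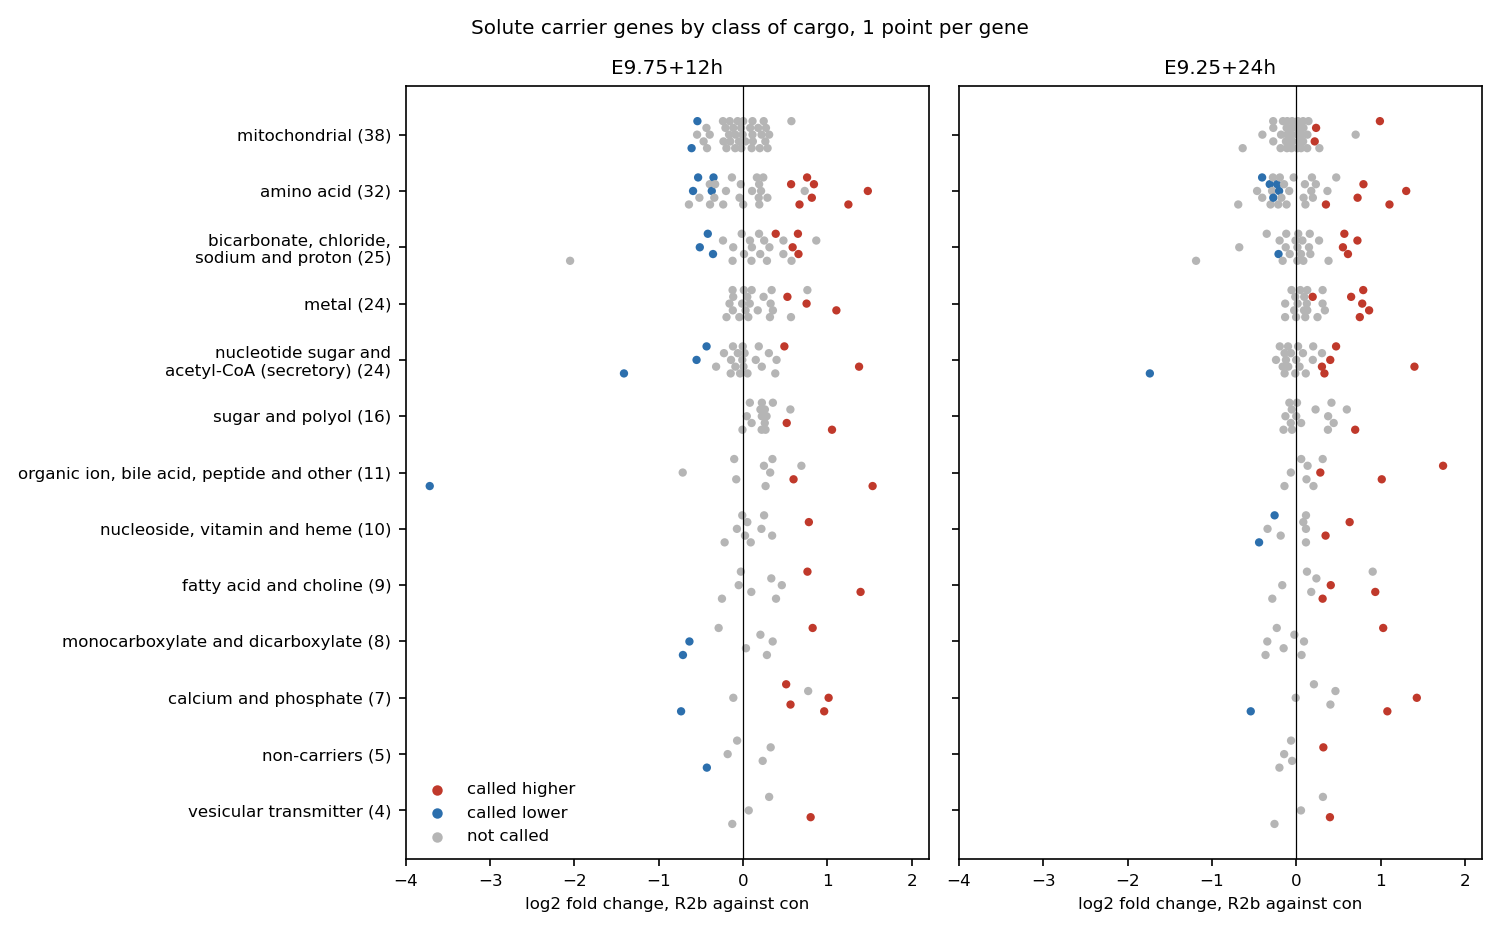
Log2 fold change of R2b against con (horizontal axis) for each solute carrier gene, in rows by class of cargo with the number of genes in brackets, at 12 hours (left, titled E9.75+12h) and at 24 hours (right, titled E9.25+24h). Red points were called higher, blue points lower and grey points were not called. Calls higher outnumber calls lower in 9 of 13 classes at 12 hours and in 11 at 24 hours, some of them by 1 call against 0. The point far to the left at 12 hours is Slc14a1.

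By class, calls higher outnumbered calls lower in 9 of 13 classes at 12 hours and in 11 at 24 hours. The 4 classes with more calls lower at 12 hours were the mitochondrial carriers, the monocarboxylate and dicarboxylate carriers, the carriers of the secretory pathway and the non-carriers. No class had more calls lower at 24 hours.

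Promoter sequences are shown for 4 carriers called in both exposures, the sister genes Slc43a2 and Slc43a1, which moved in opposite directions, and Slc29a3 and Slc20a1. The RefSeq table (GRCm38.p6) held a window from 250 bases before to 50 after the start for 163 of the 213 genes (76.5%), which is too few to compare shares between groups of carriers, so the matches are examples chosen after the matches were seen. Each window was searched on both strands for CCGGAA, the core bound by ETS factors, for ACGTG, the hypoxia response core, and for TGATGNAA, the amino acid response core. Capitals mark the matches. Of all 32851 promoter windows in the table, 14.9% held CCGGAA, 19.6% held ACGTG and 3.97% held TGATGNAA, and of the 14320 windows of genes tested here 25.3%, 24.6% and 2.17% did. The ACGTG core lies on both strands of the palindrome CACGTG, which is also the E-box core, so that palindrome is printed in capitals whole. Slc43a2 (chr11:75531444-75531743, plus strand) and Slc29a3 (chr10:60752733-60753032, minus strand) each held 1 CCGGAA, Slc43a1 (chr2:84840073-84840372, plus strand) held 1 CACGTG, and Slc20a1 (chr2:129198523-129198822, plus strand) held 2. The other windows of Slc43a2 (chr11:75531862-75532161) and Slc20a1 (chr2:129206846-129207145) held 0 matches. Among the 14 carriers called higher in both exposures that had a window, 3 held CCGGAA and 5 held ACGTG. Among the 4 called lower in both that had a window, 0 held CCGGAA and 3 held ACGTG. By gene, 29.8% and 28.7% of the genes tested that had a window held them. Whether a match went with the direction of change was not tested. A match is a description of the letters and not evidence that a factor binds.
Slc43a2: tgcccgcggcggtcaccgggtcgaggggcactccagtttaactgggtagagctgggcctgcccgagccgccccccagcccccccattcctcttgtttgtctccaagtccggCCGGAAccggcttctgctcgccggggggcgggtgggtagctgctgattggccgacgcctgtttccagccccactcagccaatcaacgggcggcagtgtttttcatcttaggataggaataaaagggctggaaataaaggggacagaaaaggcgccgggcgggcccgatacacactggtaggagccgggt
Slc29a3: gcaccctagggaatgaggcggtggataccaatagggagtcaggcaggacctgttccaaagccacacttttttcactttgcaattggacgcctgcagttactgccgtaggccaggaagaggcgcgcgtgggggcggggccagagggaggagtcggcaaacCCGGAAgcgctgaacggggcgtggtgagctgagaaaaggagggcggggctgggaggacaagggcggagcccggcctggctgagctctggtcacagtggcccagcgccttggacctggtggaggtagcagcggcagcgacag
Slc43a1: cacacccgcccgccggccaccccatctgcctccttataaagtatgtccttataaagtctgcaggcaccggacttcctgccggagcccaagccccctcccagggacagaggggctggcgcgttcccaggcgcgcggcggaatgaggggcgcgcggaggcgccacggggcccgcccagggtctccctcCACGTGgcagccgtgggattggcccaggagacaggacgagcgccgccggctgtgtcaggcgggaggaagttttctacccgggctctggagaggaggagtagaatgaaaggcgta
Slc20a1: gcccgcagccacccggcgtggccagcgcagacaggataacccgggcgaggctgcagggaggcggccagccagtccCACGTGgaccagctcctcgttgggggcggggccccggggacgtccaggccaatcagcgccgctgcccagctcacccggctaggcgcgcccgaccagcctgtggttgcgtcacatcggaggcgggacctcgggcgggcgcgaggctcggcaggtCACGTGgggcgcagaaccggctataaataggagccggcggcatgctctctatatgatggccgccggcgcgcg

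Amino acid carriers were called in both directions. Of 32 genes, 7 rose and 4 fell at 12 hours, and 5 rose and 5 fell at 24 hours, with median log2 fold changes of 0.05 and -0.10. Slc36a2, a proton-coupled carrier of glycine, proline and alanine, had 7.74, 7.68 and 7.73 CPM in the con pools and 20.4, 21.8 and 21.3 CPM in the R2b pools at 12 hours. At 24 hours it had 7.61, 6.76, 3.78 and 6.56 CPM in the con pools and 16.3, 16.5, 13.2 and 14.8 CPM in the R2b pools. Each R2b pool lay above each con pool in both exposures, with log2 fold changes of 1.48 ± 0.14 (FDR 0.000335) and 1.30 ± 0.20 (FDR 0.00508), the latter lost without litter 2 (FDR 0.0529). Slc6a17, a vesicular carrier of neutral amino acids, had 124, 144 and 141 CPM in the con pools and 250.0, 223 and 246 CPM in the R2b pools at 12 hours and 149, 151, 134 and 119 (con) and 227, 236, 238 and 209 (R2b) CPM at 24 hours. Its groups were again apart in both exposures, and the log2 fold changes were 0.84 ± 0.10 (FDR 0.000557) and 0.72 ± 0.08 (FDR 0.00162). Slc1a3, the glial glutamate and aspartate carrier GLAST, had 38.4, 26.6 and 34.5 (con) and 42.97, 66.3 and 56.5 (R2b) CPM at 12 hours and 32.6, 27.4, 11.3 and 34.998 (con) and 59.4, 63.1, 42.5 and 62.6 (R2b) CPM at 24 hours. Its con pool of litter 3 was the lowest at 24 hours, the groups did not overlap, and the log2 fold changes were 0.76 ± 0.17 (FDR 0.0117) and 1.10 ± 0.30 (FDR 0.0383). The later call was lost without con pools 1 or 2 or R2b pools 1, 2 or 4 (FDR 0.0561 to 0.103).

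The sister genes Slc43a1 and Slc43a2 encode LAT3 and LAT4, which carry large neutral amino acids without sodium, and they moved in opposite directions. Slc43a2 had 31.2, 33.5 and 25.5 CPM in the con pools and 50.3, 40.7 and 50.1 CPM in the R2b pools at 12 hours and 33.2, 31.7, 31.2 and 36.1 (con) and 41.3, 41.3, 44.5 and 40.7 (R2b) CPM at 24 hours. Slc43a1 had 57.6, 59.8 and 55.95 CPM in the con pools and 43.4, 46.2 and 42.2 CPM in the R2b pools at 12 hours and 41.02, 44.8, 45.7 and 42.6 (con) and 30.3, 33.5, 32.97 and 34.1 (R2b) CPM at 24 hours. Neither gene's groups overlapped: every R2b pool was above every con pool for Slc43a2 and below for Slc43a1. Without 1 litter, the Slc43a2 calls were lost without litters 1 or 3 (FDR up to 0.116) at 12 hours and litters 1 or 2 (FDR up to 0.0846) at 24 hours, and the 24-hour Slc43a1 call without litter 2 (FDR 0.0501). The log2 fold changes of Slc43a2 were 0.67 ± 0.14 (FDR 0.00704) and 0.35 ± 0.06 (FDR 0.0102), and those of Slc43a1 were -0.37 ± 0.10 (FDR 0.0238) and -0.41 ± 0.06 (FDR 0.00584). The Slc43a1 call at 12 hours was lost with the replicate block (FDR 0.0706) and without con pools 1 or 2 or R2b pools 1 or 3 (FDR 0.0721 to 0.0937).

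Slc38a2, the sodium-coupled neutral amino acid carrier SNAT2 that rises in starved cells, was the most abundant gene of the class per length of exon (36.4 CPM per kb on average). It had 295, 300.02 and 335 CPM in the con pools and 228, 257 and 231 CPM in the R2b pools at 12 hours and 355, 349, 383 and 358 (con) and 265, 278, 294 and 318 (R2b) CPM at 24 hours. All R2b pools were below all con pools in both, with log2 fold changes of -0.35 ± 0.09 (FDR 0.0242) and -0.32 ± 0.06 (FDR 0.0117), the latter lost without litters 1 or 2 (FDR up to 0.0828). The earlier call was lost with the replicate block (FDR 0.0644) and without con pools 1, 2 or 3 or R2b pools 1 or 3 (FDR 0.0508 to 0.108). Its neighbours on chromosome 15, Slc38a1 and Slc38a4, were looked at after their values were seen. Slc38a1 had a log2 fold change of -0.24 ± 0.08 (FDR 0.0701) at 12 hours and fell at 24 hours by 0.23 ± 0.05 (FDR 0.0213), and Slc38a4 fell at 12 hours by 0.53 ± 0.13 (FDR 0.0133) and had a log2 fold change of -0.20 ± 0.25 (FDR 0.635) at 24 hours. The Slc38a4 value passed with the replicate block at 24 hours (FDR 0.0111). The Slc38a4 call was lost without R2b pool 1 (FDR 0.0714), and that of Slc38a1 without con pools 1, 2 or 3 or R2b pools 1 or 2 (FDR 0.0514 to 0.0686). Slc7a4, a member of the cationic carrier family, rose by 1.25 ± 0.28 (FDR 0.0108) and 0.79 ± 0.20 (FDR 0.0313), and Slc7a8, the LAT2 exchanger, rose at 12 hours by 0.81 ± 0.25 (FDR 0.0427) and had a log2 fold change of 0.20 ± 0.17 (FDR 0.483) at 24 hours. The 12-hour call of Slc7a4 was lost without litters 1 or 3 (FDR up to 0.134) and its 24-hour call without con pools 3 or 4 or R2b pools 1 or 2 (FDR 0.0587 to 0.0953), and the call of Slc7a8 was lost with the replicate block (FDR 0.053) and without con pools 1, 2 or 3 or R2b pools 1 or 3 (FDR 0.0548 to 0.147). Exons of Slc7a4 overlap those of P2rx6 on the opposite strand (13.3% of exon bases).

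**Figure D2:**
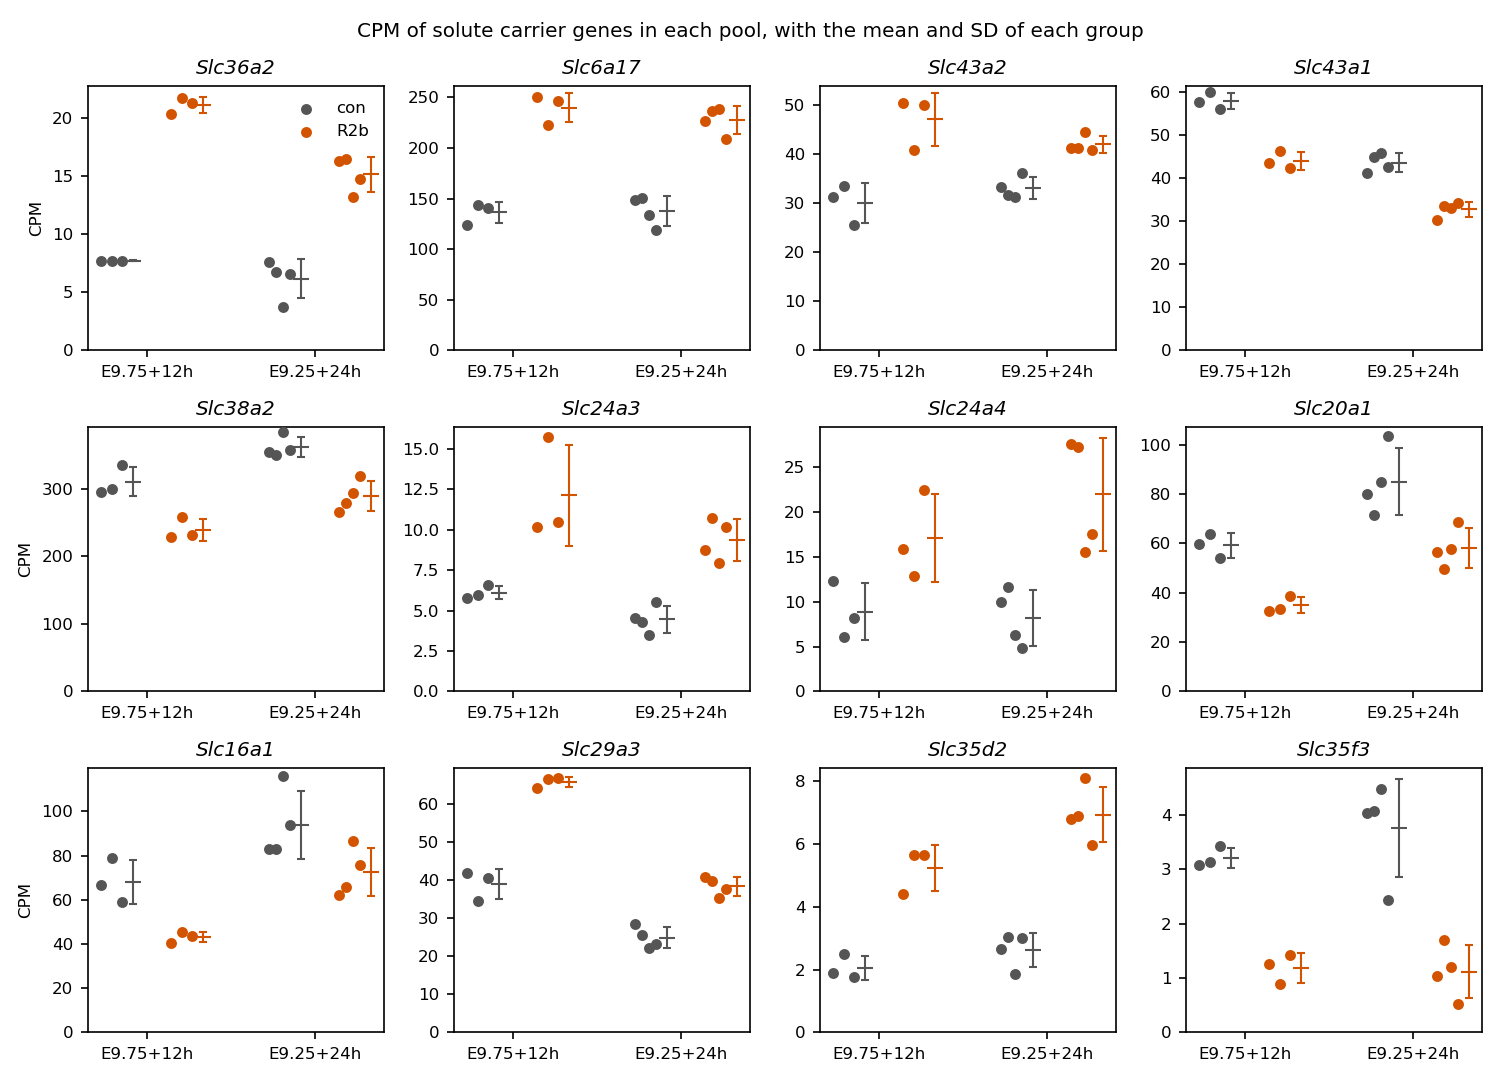
CPM (vertical axes, from 0) of 12 solute carrier genes in each pool at 12 and 24 hours, con in grey and R2b in orange, with the mean and SD of each group beside the points. The R2b pools of Slc36a2, Slc6a17, Slc43a2, Slc24a3, Slc24a4, Slc29a3 and Slc35d2 lie above all con pools and those of Slc43a1, Slc38a2, Slc20a1 and Slc35f3 below them in both exposures, while the Slc16a1 groups overlap at 24 hours.

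Genes of the amino acid response, the programme by which starved cells induce transporters and synthesis enzymes, were taken as a companion list. Of 15 such genes tested, 1 rose and 3 fell at 12 hours and 1 rose and 2 fell at 24 hours. Over all genes tested, 20% and 15.6% were called. The list had median log2 fold changes of -0.06 and -0.14, beside 0.01 and -0.01 over all genes. Sesn2, a leucine-sensing regulator of mTORC1, rose in both (0.76, FDR 0.00219 and 0.68, FDR 0.00347). The genes that fell at 12 hours were Atf4, the factor that drives the programme (-0.37, FDR 0.0378), Psat1 of serine synthesis (-0.77, FDR 0.002) and Cth of cysteine synthesis (-0.82, FDR 0.00303). At 24 hours Cth (-0.54, FDR 0.0326) and Pycr1 of proline synthesis (-0.38, FDR 0.033) fell. Atf4 (-0.27, FDR 0.0634) and Psat1 (-0.34, FDR 0.218) were not called there, nor was Pycr1 at 12 hours (-0.27, FDR 0.312).

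Among the 7 calcium and phosphate carriers the class median was the highest of the 13 classes in both exposures, 0.56 at 12 hours and 0.40 at 24 hours. Calcium carriers rose and a phosphate carrier fell: 4 rose and 1 fell at 12 hours, and 2 rose and 1 fell at 24 hours. Slc24a3, which exchanges sodium for calcium and potassium, had 5.80, 5.98 and 6.57 CPM in the con pools and 10.19, 15.7 and 10.5 CPM in the R2b pools at 12 hours and 4.53, 4.32, 3.46 and 5.53 (con) and 8.73, 10.7, 7.92 and 10.16 (R2b) CPM at 24 hours. Its paralog Slc24a4 had 12.3, 6.09 and 8.17 (con) and 15.8, 12.9 and 22.4 (R2b) CPM at 12 hours and 10.01, 11.6, 6.33 and 4.83 (con) and 27.5, 27.2, 15.5 and 17.5 (R2b) CPM at 24 hours. Neither gene's groups overlapped, with the R2b pools higher throughout. The log2 fold changes of Slc24a3 were 1.01 ± 0.20 (FDR 0.00634) and 1.08 ± 0.17 (FDR 0.00533), and those of Slc24a4 were 0.96 ± 0.27 (FDR 0.0274) and 1.43 ± 0.30 (FDR 0.0177). The Slc24a3 calls were lost without litter 1 (FDR 0.0627) at 12 hours and litters 1 or 2 (FDR up to 0.0614) at 24 hours. The Slc24a4 call was lost at 12 hours without con pools 2 or 3 or R2b pools 1 or 3 (FDR 0.0697 to 0.103) and at 24 hours without R2b pools 1 or 2 (FDR 0.0569 to 0.0593).

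Slc20a1, the sodium-phosphate carrier PiT1, had 59.7, 63.8 and 54.02 CPM in the con pools and 32.8, 33.4 and 38.8 CPM in the R2b pools at 12 hours and 79.9, 71.7, 84.7 and 104 (con) and 56.5, 49.6, 57.7 and 68.7 (R2b) CPM at 24 hours. It was lower in every R2b pool than in any con pool in both exposures, with log2 fold changes of -0.74 ± 0.12 (FDR 0.00197) and -0.54 ± 0.12 (FDR 0.021), the former lost without litter 1 (FDR 0.0667) and the latter without R2b pools 1 or 2 (FDR 0.0637 to 0.0672). Slc20a2, its paralog PiT2 and the most abundant gene of the class per kb, had log2 fold changes of -0.12 ± 0.11 (FDR 0.468) and -0.01 ± 0.07 (FDR 0.953) with overlapping groups. The plasma membrane sodium-calcium exchanger Slc8a1, named after its values were seen, rose at 12 hours (0.51 ± 0.14, FDR 0.0283) and had a log2 fold change of 0.46 ± 0.17 (FDR 0.0916) at 24 hours. The replicate block called the later value (FDR 0.00415) and not the earlier (FDR 0.0832), which was also lost without con pools 1, 2 or 3 or R2b pools 1 or 3 (FDR 0.059 to 0.101).

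Of 25 bicarbonate, chloride, sodium and proton carriers, 4 rose and 3 fell at 12 hours, and 4 rose and 1 fell at 24 hours. Calls among the sodium-bicarbonate carriers went in both directions. Slc4a5, the electrogenic NBCe2, had 10.9, 13.6 and 10.9 (con) and 19.9, 15.7 and 16.5 (R2b) CPM at 12 hours and 9.002, 10.4, 8.89 and 8.76 (con) and 16.7, 17.04, 14.8 and 12.4 (R2b) CPM at 24 hours. Slc4a4, the electrogenic NBCe1, had 15.9, 13.7 and 11.1 (con) and 11.2, 13.1 and 16.2 (R2b) CPM at 12 hours and 13.8, 15.9, 13.6 and 16.7 (con) and 18.2, 22.04, 24.7 and 23.7 (R2b) CPM at 24 hours. Slc4a7, the electroneutral NBCn1, had 113, 98.4 and 97.6 (con) and 70.7, 82.2 and 74.6 (R2b) CPM at 12 hours and 120.5, 112, 125 and 109 (con) and 102, 102, 103 and 108 (R2b) CPM at 24 hours. The R2b pools were all above the con pools for Slc4a5 in both exposures and for Slc4a4 at 24 hours, and all below for Slc4a7 in both. Slc4a5 rose in both (0.59 ± 0.16, FDR 0.027 and 0.72 ± 0.13, FDR 0.00843), Slc4a4 rose at 24 hours (0.57 ± 0.11, FDR 0.0145, beside 0.01 ± 0.19, FDR 0.977 at 12 hours), and Slc4a7 fell at 12 hours (-0.42 ± 0.10, FDR 0.0181, beside -0.16 ± 0.05, FDR 0.0673 at 24 hours). The effect at 24 hours minus that at 12 hours was 0.57 (FDR 0.285) for Slc4a4 and 0.27 (FDR 0.318) for Slc4a7, and neither passed. With the replicate block Slc4a5 (FDR 0.077) and Slc4a7 (FDR 0.0591) were not called at 12 hours and Slc4a7 was at 24 hours (FDR 0.0193). The 24-hour calls were lost without litter 1 (FDR 0.085) for Slc4a5 and litters 2 or 3 (FDR up to 0.0757) for Slc4a4. The 12-hour calls were lost without con pools 1 or 3 or R2b pools 1 or 3 (FDR 0.0543 to 0.137) for Slc4a5 and without con pool 1 or R2b pools 1 or 3 (FDR 0.0503 to 0.0913) for Slc4a7.

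Slc12a2 encodes NKCC1, the sodium-potassium-chloride carrier needed for inner ear fluid, and had 107, 92.9 and 97.8 (con) and 74.9, 83.6 and 70.3 (R2b) CPM at 12 hours and 124, 123, 122 and 136 (con) and 108, 102, 106 and 118 (R2b) CPM at 24 hours. The groups were apart, with R2b lower, and the log2 fold changes were -0.36 ± 0.10 (FDR 0.0351) and -0.21 ± 0.05 (FDR 0.0318). The first call was lost with the replicate block (FDR 0.0867) and without con pools 1, 2 or 3 or R2b pools 1 or 3 (FDR 0.0584 to 0.129), and the second without con pools 1, 2, 3 or 4 or R2b pools 1, 2 or 3 (FDR 0.0511 to 0.0932). Slc12a7, the potassium-chloride exporter KCC4, had log2 fold changes of 0.10 ± 0.11 (FDR 0.5677) at 12 hours and 0.01 ± 0.04 (FDR 0.866) at 24 hours. Slc9a9, an endosomal sodium-proton exchanger, rose in both (0.65 ± 0.19, FDR 0.0338 and 0.61 ± 0.12, FDR 0.0148). Slc4a2, the chloride-bicarbonate exchanger AE2 and the most abundant gene of the class per kb, rose at 12 hours (0.39 ± 0.12, FDR 0.0378) and had a log2 fold change of 0.05 ± 0.08 (FDR 0.696) at 24 hours, and 13.7% of its exon bases overlap Fastk on the opposite strand. At 12 hours neither Slc9a9 (FDR 0.0612) nor Slc4a2 (FDR 0.0887) was called with the replicate block. The Slc9a9 calls were lost without con pools 2 or 3 or R2b pools 1 or 3 (FDR 0.0604 to 0.118) at 12 hours and without R2b pool 2 (FDR 0.0508) at 24 hours, and the Slc4a2 call without con pools 1, 2 or 3 or R2b pools 1 or 3 (FDR 0.0714 to 0.177). Slc26a9, a chloride carrier named after its values were seen, fell at 12 hours (-0.51 ± 0.15, FDR 0.0329) and had a log2 fold change of -0.68 ± 0.22 (FDR 0.0654) at 24 hours. The block called the later value (FDR 8.16e-05) and not the earlier (FDR 0.0717).

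Of 24 metal carriers, 3 rose at 12 hours and 6 at 24 hours, and none fell. Among all genes tested, 20% were called at 12 hours and 15.6% at 24 hours, and 9.78% and 6.50% were called lower. Few falls would thus be counted among 24 genes at those shares, and whether the class differed from all genes was not tested. The metal carriers had class medians of 0.09 and 0.13. Their summed CPM was 1500.1 ± 50.03 in con and 1565 ± 75.3 in R2b at 12 hours (SD, n = 3) and 1612 ± 63.5 and 1899 ± 89.9 at 24 hours (SD, n = 4). Most of the latter difference was Slc30a4: without it the sums at 24 hours were 1330.0 ± 8.29 and 1417 ± 15.6. Slc30a4, the vesicular zinc carrier ZnT4 and the most abundant gene of the class per kb, had 289, 213 and 237 CPM in the con pools and 292, 319 and 309 CPM in the R2b pools at 12 hours and 327, 305, 296 and 199.6 (con) and 561, 550.1, 430.3 and 388 (R2b) CPM at 24 hours. The R2b pools were above the con pools in both exposures, narrowly at 12 hours. Its log2 fold changes were 0.34 ± 0.12 (FDR 0.0602) and 0.78 ± 0.17 (FDR 0.0203), and the call was lost without R2b pools 1 or 2 (FDR 0.0644 to 0.0652). Slc40a1, the iron exporter ferroportin, had 3.32, 3.33, 2.71 and 3.98 (con) and 5.61, 6.07, 5.68 and 5.68 (R2b) CPM at 24 hours. It rose there with groups apart (0.79 ± 0.14, FDR 0.0102, lost without litters 1 or 2, FDR up to 0.0849) and had a log2 fold change of 0.76 ± 0.32 (FDR 0.119) at 12 hours, where it was not called.

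The zinc importer Slc39a5 rose in both exposures (0.75 ± 0.24, FDR 0.0488 and 0.86 ± 0.17, FDR 0.0148), as did Slc41a3 of the magnesium carrier family (1.11 ± 0.32, FDR 0.0328 and 0.75 ± 0.16, FDR 0.0174). Slc41a3 reached 2 CPM on average in 5 of the 6 groups, and its rises are given as a description. With the replicate block neither Slc39a5 (FDR 0.0788) nor Slc41a3 (FDR 0.0543) was called at 12 hours. The Slc39a5 call at 24 hours was lost without litters 1 or 2 (FDR up to 0.0884). That at 12 hours was lost without con pools 1, 2 or 3 or R2b pools 1 or 3 (FDR 0.0814 to 0.244), and the Slc41a3 calls without con pools 1 or 2 or R2b pools 1 or 3 (FDR 0.104 to 0.113) and, at 24 hours, without R2b pool 2 (FDR 0.0576). Slc39a13, the zinc carrier ZIP13, rose at 12 hours (0.52 ± 0.13, FDR 0.0202) and had a log2 fold change of 0.13 ± 0.09 (FDR 0.347) at 24 hours. That call was lost with the replicate block (FDR 0.0557) and without con pools 1 or 2 or R2b pools 1 or 3 (FDR 0.0699 to 0.0904), and 4.42% of the exon bases overlap Psmc3 on the opposite strand.

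Mitochondrial carriers were the largest class and the one with the smallest share of calls at 12 hours, where 0 of 38 rose and 2 fell, and 3 rose and 0 fell at 24 hours. Slc25a4, the adenine nucleotide carrier ANT1, was the most abundant carrier per length of all 213 (144.5 CPM per kb) and had log2 fold changes of -0.12 ± 0.08 (FDR 0.352) and -0.06 ± 0.08 (FDR 0.65). Slc25a5, its paralog ANT2, had 76.4, 84.6 and 80.6 CPM in the con pools and 51.98, 57.4 and 46.1 CPM in the R2b pools at 12 hours and 126, 126, 149 and 158 (con) and 109, 103, 119.7 and 128 (R2b) CPM at 24 hours. Slc25a13, the aspartate-glutamate carrier citrin, had 109, 108 and 114 (con) and 69.8, 81.6 and 71.6 (R2b) CPM and 118, 125, 155 and 108 (con) and 105, 108, 127 and 103 (R2b) CPM. For both genes the R2b pools were all lower at 12 hours and the groups overlapped at 24 hours, where R2b was lower in each of the 4 litters. Both fell at 12 hours (-0.61 ± 0.11, FDR 0.00374 for Slc25a5 and -0.54 ± 0.10, FDR 0.00393 for Slc25a13), and the calls were lost without litter 1 (FDR 0.0652) and litter 1 (FDR 0.09). At 24 hours the values were -0.27 ± 0.09 (FDR 0.0732) and -0.19 ± 0.11 (FDR 0.294), and both were called with the replicate block (FDR 0.000177 and FDR 0.00634). The difference of effects between the exposures was 0.35 (FDR 0.386) and 0.37 (FDR 0.382). At 24 hours Slc25a24, the ATP-Mg and phosphate carrier, rose by 0.23 ± 0.04 (FDR 0.0113) and Slc25a35 by 0.99 ± 0.15 (FDR 0.00472). Those calls were lost without litters 1, 2 or 3 (FDR up to 0.0726) and litter 1 (FDR 0.0576). In Slc25a35, 31.3% of exon bases overlap Rangrf on the opposite strand. Their values at 12 hours were 0.10 ± 0.13 (FDR 0.622) and 0.57 ± 0.24 (FDR 0.118).

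Slc16a1, the lactate and pyruvate carrier MCT1, had 66.8, 78.8 and 58.9 CPM in the con pools and 40.6, 45.3 and 43.5 CPM in the R2b pools at 12 hours and 83.0, 83.1, 116 and 93.9 (con) and 62.2, 65.8, 86.7 and 75.7 (R2b) CPM at 24 hours. Every R2b pool was lower at 12 hours, and at 24 hours the groups overlapped while R2b was lower in 4 of 4 litters. The log2 fold changes were -0.64 ± 0.12 (FDR 0.00518) and -0.37 ± 0.13 (FDR 0.0907), the former was lost without litter 1 (FDR 0.104), and the block called the latter (FDR 6.1e-05). Of the 8 monocarboxylate and dicarboxylate carriers 1 rose and 2 fell at 12 hours, and 1 rose at 24 hours. Slc16a4, an orphan of the family, rose in both (0.82 ± 0.24, FDR 0.0345 and 1.03 ± 0.25, FDR 0.0259), and Slc16a6 fell at 12 hours (-0.71 ± 0.19, FDR 0.0257) and had a log2 fold change of -0.35 ± 0.20 (FDR 0.28) at 24 hours. The 12-hour calls of Slc16a4 (FDR 0.0823) and Slc16a6 (FDR 0.0733) were lost with the replicate block, which called Slc16a6 at 24 hours (FDR 0.0346). Without 1 pool, Slc16a4 was lost for con pools 2 or 3 or R2b pools 1 or 2 (FDR 0.062 to 0.109) at 12 hours and for con pools 1 or 3 or R2b pools 1 or 2 (FDR 0.0532 to 0.0819) at 24 hours, and Slc16a6 for con pools 1, 2 or 3 or R2b pools 1 or 3 (FDR 0.0583 to 0.0715) at 12 hours. In Slc16a6, 21.5% of exon bases overlap Amz2 on the opposite strand.

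Of 16 sugar and polyol carriers, 2 rose at 12 hours and 1 at 24 hours, and none fell. Slc2a12, the glucose carrier GLUT12, had 8.58, 7.97 and 9.22 (con) and 20.5, 19.9 and 12.1 (R2b) CPM at 12 hours and 8.67, 10.24, 7.29 and 7.17 (con) and 13.2, 14.1, 12.2 and 14.4 (R2b) CPM at 24 hours. Its R2b pools were above its con pools in both exposures (1.05 ± 0.20, FDR 0.00553 and 0.70 ± 0.14, FDR 0.0131), with the R2b pool of litter 3 nearest to con at 12 hours. Its calls were lost without litter 1 (FDR 0.107) at 12 hours and litter 1 (FDR 0.0893) at 24 hours. In Slc2a12, 9.61% of exon bases overlap Tbpl1 on the opposite strand. Slc2a1, the main glucose carrier GLUT1 and the most abundant of the class per kb, had 106, 129.9 and 149 (con) and 146, 155 and 151 (R2b) CPM at 12 hours and log2 fold changes of 0.26 ± 0.12 (FDR 0.143) and 0.06 ± 0.05 (FDR 0.52), with overlapping groups. Slc50a1, a sugar carrier of the SWEET family, rose at 12 hours (0.52 ± 0.14, FDR 0.026) and had a log2 fold change of 0.44 ± 0.17 (FDR 0.108) at 24 hours. With the replicate block the later value was called (FDR 0.00121) and the earlier was not (FDR 0.0609), and the earlier call was lost without con pools 2 or 3 or R2b pools 1 or 3 (FDR 0.0785 to 0.109). Of 18 genes of glycolysis and the hypoxia response, Hk1 rose (0.55, FDR 0.00407) and Hk2 fell (-0.59, FDR 0.0155) at 12 hours, and Hk2 alone was called at 24 hours (-0.33, FDR 0.0432). Both encode hexokinases, which trap glucose inside the cell. Over all genes tested, 20% were called at 12 hours and 15.6% at 24 hours.

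Of 10 nucleoside, vitamin and heme carriers, 1 rose at 12 hours, and 2 rose and 2 fell at 24 hours. Slc29a3, the lysosomal nucleoside carrier ENT3, had 41.8, 34.5 and 40.4 CPM in the con pools and 64.1, 66.3 and 66.6 CPM in the R2b pools at 12 hours and 28.5, 25.5, 22.2 and 23.1 (con) and 40.7, 39.8, 35.2 and 37.6 (R2b) CPM at 24 hours. Its groups were far apart in both exposures, and the log2 fold changes were 0.78 ± 0.11 (FDR 0.00114) and 0.63 ± 0.09 (FDR 0.00449). It was called in every alternative run on those exposures. Its paralog Slc29a2, the plasma membrane carrier ENT2, had 11.7, 12.1, 13.6 and 12.2 (con) and 8.06, 8.64, 9.62 and 10.1 (R2b) CPM at 24 hours, where R2b was lower with groups apart, and it fell by 0.44 ± 0.10 (FDR 0.0249), beside -0.22 ± 0.19 (FDR 0.448) at 12 hours. That call was lost without con pools 2 or 3 or R2b pools 1 or 2 (FDR 0.0526 to 0.0775). The heme carrier Slc48a1, the most abundant of the class per kb, had log2 fold changes of 0.25 ± 0.12 (FDR 0.154) and 0.11 ± 0.12 (FDR 0.565).

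Nucleotide sugar carriers feed glycosylation in the Golgi and endoplasmic reticulum. Of 24 genes of the secretory pathway, 2 rose and 3 fell at 12 hours, and 5 rose and 1 fell at 24 hours. Slc35d2, a nucleotide sugar carrier, had 1.88, 2.50 and 1.77 CPM in the con pools and 4.40, 5.66 and 5.65 CPM in the R2b pools at 12 hours and 2.65, 3.03, 1.86 and 2.998 (con) and 6.79, 6.89, 8.10 and 5.96 (R2b) CPM at 24 hours. R2b was higher in every pool, with log2 fold changes of 1.37 ± 0.25 (FDR 0.00419) and 1.40 ± 0.18 (FDR 0.00264). Slc35f3, placed here by family, had 3.09, 3.13 and 3.42 CPM in the con pools and 1.26, 0.883 and 1.43 CPM in the R2b pools at 12 hours and 4.04, 4.07, 4.47 and 2.44 (con) and 1.04, 1.70, 1.21 and 0.525 (R2b) CPM at 24 hours. R2b was lower in every pool, with log2 fold changes of -1.41 ± 0.29 (FDR 0.00769) and -1.74 ± 0.34 (FDR 0.0137), the latter lost without R2b pool 1 (FDR 0.0512). Without 1 litter, the 12-hour calls were lost for Slc35d2 without litter 1 (FDR 0.0525) and for Slc35f3 without litter 1 (FDR 0.0912). Both genes are scarce. Slc35f3 lies just above the 2 CPM limit of the set, and its R2b groups at 12 and 24 hours averaged below that limit, so that the other 4 groups brought it into the set and its fall is given as a description. Slc35f5 rose at 24 hours (0.40 ± 0.07, FDR 0.00741, lost without litter 1, FDR 0.0765) and had a log2 fold change of 0.22 ± 0.14 (FDR 0.274) at 12 hours. Slc35a4, the most abundant of the class per kb, had log2 fold changes of -0.12 ± 0.11 (FDR 0.45) and -0.16 ± 0.06 (FDR 0.115), and the block called the latter (FDR 0.00498).

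Of 9 fatty acid and choline carriers, 2 rose at 12 hours and 3 at 24 hours, and none fell. Among all genes tested, 20% were called at 12 hours and 15.6% at 24 hours, and 9.78% and 6.50% were called lower. At those shares 9 genes are too few for an absence of falls to set the class apart. Slc44a4, a choline carrier family member linked to hearing, had 2.09, 2.50 and 1.88 (con) and 7.92, 3.89 and 4.91 (R2b) CPM at 12 hours and 3.71, 3.68, 2.29 and 1.59 (con) and 6.93, 5.24, 4.47 and 4.39 (R2b) CPM at 24 hours. R2b was above con in both, highest in the pool of litter 1, and the log2 fold changes were 1.39 ± 0.30 (FDR 0.00884) and 0.90 ± 0.29 (FDR 0.0653). The first was lost without R2b pool 1 (FDR 0.0568), and the block called the second (FDR 0.00157). At 24 hours its relatives Slc44a2 (0.31 ± 0.06, FDR 0.0146) and Slc44a3 (0.93 ± 0.22, FDR 0.0252) rose, and their values at 12 hours were 0.10 ± 0.19 (FDR 0.749) and 0.46 ± 0.20 (FDR 0.123). The calls were lost without R2b pool 1 (FDR 0.0525) for Slc44a2 and without con pool 3 or R2b pools 1 or 2 (FDR 0.0611 to 0.0803) for Slc44a3. Slc27a1, the fatty acid carrier FATP1, rose in both (0.76 ± 0.22, FDR 0.035 and 0.41 ± 0.11, FDR 0.0414), although at 12 hours the R2b pool of litter 2 lay within the con range. The calls of Slc27a1 were lost without con pools 1, 2 or 3 or R2b pools 1 or 3 (FDR 0.0669 to 0.151) at 12 hours, where the replicate block lost it as well (FDR 0.0813), and without con pools 1, 3 or 4 or R2b pools 1, 2 or 3 (FDR 0.058 to 0.121) at 24 hours. Slc27a3, the most abundant of the class per kb, had log2 fold changes of 0.39 ± 0.15 (FDR 0.0924) and 0.24 ± 0.08 (FDR 0.0644), and the block called the latter (FDR 0.0114).

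Of 11 carriers of organic ions, bile acids, peptides and other cargo, 2 rose and 1 fell at 12 hours, and 3 rose at 24 hours. Slc22a18, an imprinted organic cation carrier, had 1.93, 0.967 and 1.43 (con) and 4.66, 3.21 and 4.59 (R2b) CPM at 12 hours and 1.54, 2.63, 1.44 and 1.64 (con) and 3.25, 4.22, 3.44 and 3.67 (R2b) CPM at 24 hours. Its groups were apart, with log2 fold changes of 1.53 ± 0.31 (FDR 0.00702) and 1.01 ± 0.22 (FDR 0.0198), the former lost without litter 1 (FDR 0.058) and the latter without con pool 1 or R2b pools 1 or 2 (FDR 0.0509 to 0.0644). Slc15a1, the peptide carrier PEPT1, had 1.01, 0.944, 0.532 and 0.609 (con) and 2.69, 3.93, 2.64 and 1.10 (R2b) CPM at 24 hours, where R2b was higher in every pool (1.74 ± 0.39, FDR 0.0214), and had a log2 fold change of 0.69 ± 0.57 (FDR 0.413) at 12 hours. That call was lost without con pool 3 or R2b pools 1 or 2 (FDR 0.0565 to 0.0644). Slc22a18 and Slc15a1 each reached 2 CPM on average in only 4 of the 6 groups, and most of their con pools at 24 hours lay below it. Their rises are therefore given as a description. Slc14a1, the urea carrier, entered the set through its level in the late exposure (9.62 CPM in libraries labelled con) and was scarce before. At 12 hours it had 32, 18 and 20 counts in con and 3, 2 and 1 in R2b, a ratio of con to R2b of 13.4 with a 95% exact counting interval of 5.87 to 37.8, and the fall was called (FDR 0.00133). The test left it out at 24 hours, where the filter on low counts removed it. Slc22a17, the lipocalin receptor and the most abundant of the class per kb, rose at 12 hours (0.60 ± 0.18, FDR 0.0424) with overlapping groups, and had a log2 fold change of 0.20 ± 0.07 (FDR 0.0776) at 24 hours, where the block called it (FDR 0.0075). At 12 hours its call was lost with the block (FDR 0.0834) and without con pools 1, 2 or 3 or R2b pools 1 or 3 (FDR 0.0669 to 0.184).

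Of the 4 vesicular transmitter carriers, Slc18a1, the monoamine carrier VMAT1, rose at 12 hours (0.80 ± 0.22, FDR 0.0246) and had a log2 fold change of 0.31 ± 0.18 (FDR 0.266) at 24 hours, and Slc18b1, a vesicular polyamine carrier and the most abundant of the class per kb, rose at 24 hours (0.40 ± 0.10, FDR 0.035) and had a log2 fold change of 0.31 ± 0.13 (FDR 0.103) at 12 hours. The Slc18a1 call was lost with the block (FDR 0.0511) and without con pools 2 or 3 or R2b pools 1 or 3 (FDR 0.0641 to 0.0921), and the Slc18b1 call without con pools 1, 3 or 4 or R2b pools 1, 2, 3 or 4 (FDR 0.0539 to 0.104). Among the 5 genes that are not carriers, Slc9a3r1, the scaffold NHERF1 that anchors exchangers at the apical membrane, had 94.1, 94.0, 108 and 86.2 (con) and 114, 117, 129 and 115 (R2b) CPM at 24 hours. It rose there (0.32 ± 0.07, FDR 0.0221, groups apart) and had a log2 fold change of 0.23 ± 0.12 (FDR 0.194) at 12 hours. Its call was lost without con pool 1 or R2b pools 1 or 2 (FDR 0.0534 to 0.0616). Slc7a6os fell at 12 hours (-0.43 ± 0.12, FDR 0.027) and had a log2 fold change of -0.06 ± 0.08 (FDR 0.628) at 24 hours, a call lost with the block (FDR 0.066) and without con pools 1 or 2 or R2b pools 1 or 3 (FDR 0.0801 to 0.118). Its effects differed by 0.38 (FDR 0.249) between the exposures, the smallest p of all carriers in that test.

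Of 20 carriers listed for roles in hearing, 18 were in the table and 15 were tested in each of these exposures. At 12 hours 4 rose (Slc1a3, Slc29a3, Slc44a4 and Slc7a8) and 2 fell (Slc12a2 and Slc4a7), and at 24 hours 3 rose (Slc1a3, Slc29a3 and Slc30a4) and 1 fell (Slc12a2), where 20% and 15.6% of all genes were called. The list had median log2 fold changes of 0.22 and 0.15, beside 0.01 and -0.01 over all genes. It was chosen with earlier results of these data known, so these shares and medians are a description only. Of the members that were not called, the thiamine carrier Slc19a2 had log2 fold changes of -0.01 and 0.11, the riboflavin carrier Slc52a2 0.22 and 0.08, and the acetyl-CoA carrier Slc33a1 0.00 and -0.14. Carriers best known from the mature ear were scarce over all libraries: Slc26a4, the pendrin anion exchanger, averaged 1.04 CPM, Slc26a5, the prestin of outer hair cells, 0.428 CPM and Slc17a8, the vesicular glutamate carrier of inner hair cells, 0.537 CPM, all below the limit of the set. By group, Slc26a4 averaged 0.43 to 0.61 CPM at 12 and 24 hours. In the late exposure it averaged 1.78 CPM under the con label and 2.15 CPM under the R2b label, the latter above that limit.

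Proteins that carriers depend on, and transporters without an Slc symbol, were read as a companion list of sodium pump subunits, dimer partners, carbonic anhydrases and kinases. Of 31 tested at 12 hours 5 rose and 4 fell, and of 30 at 24 hours 8 rose and 3 fell. Over all genes tested, 20% and 15.6% were called. The list had median log2 fold changes of 0.06 and 0.15, beside 0.01 and -0.01 over all genes. Calls among the carbonic anhydrases, which supply bicarbonate, went in both directions. Car4, which is anchored to the outer face of the plasma membrane, rose in both exposures (0.84, FDR 0.001 and 1.78, FDR 0.0122). Car2, which is cytosolic, rose at 24 hours (0.70, FDR 0.023), beside 0.06 (FDR 0.86) at 12 hours. Car14 fell in both (-0.77, FDR 0.00153 and -0.58, FDR 0.032). Car4 had 41.8 ± 2.05 CPM in con and 73.6 ± 8.47 in R2b at 12 hours (SD, n = 3), and Car14 had 130.7 ± 12.0 and 75.4 ± 9.32.

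Among dimer partners of the lactate carriers, Emb fell at 12 hours (-0.63, FDR 0.00323) together with Slc16a1. Bsg (0.38, FDR 0.00632) and Nptn (0.26, FDR 0.0245) rose at 24 hours. Not called were Emb at 24 hours (-0.30, FDR 0.143) and, at 12 hours, Bsg (0.13, FDR 0.349) and Nptn (0.04, FDR 0.842). Of the sodium pump subunits, Atp1b2 rose at 12 hours (0.79, FDR 0.0023), and Atp1b1 rose at 24 hours (0.48, FDR 0.0341). In the other exposure Atp1b2 had 0.35 (FDR 0.2) and Atp1b1 had 0.27 (FDR 0.142). Wnk4, a kinase that acts on the Slc12 carriers, rose in both (0.65, FDR 0.0167 and 0.67, FDR 0.0169). Oxsr1, a kinase that phosphorylates NKCC1, fell at 12 hours (-0.30, FDR 0.0413), beside -0.10 (FDR 0.131) at 24 hours. Other transporters moved as well. Mfsd2a, a lysolipid carrier, fell in both (-1.28, FDR 0.00518 and -1.19, FDR 0.00123). Flvcr1, a heme and choline carrier, was called lower at 24 hours (-0.47, FDR 0.0226) and had the value -0.47 (FDR 0.057) at 12 hours. Ctns, the lysosomal cystine exporter, rose at 12 hours (0.52, FDR 0.0174), beside 0.19 (FDR 0.211) at 24 hours. The organic anion carrier Slco3a1 rose in both (0.76, FDR 0.0019 and 0.55, FDR 0.00727). Whether the calls of these companion genes depend on 1 pool was not examined.

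**Figure D3:**
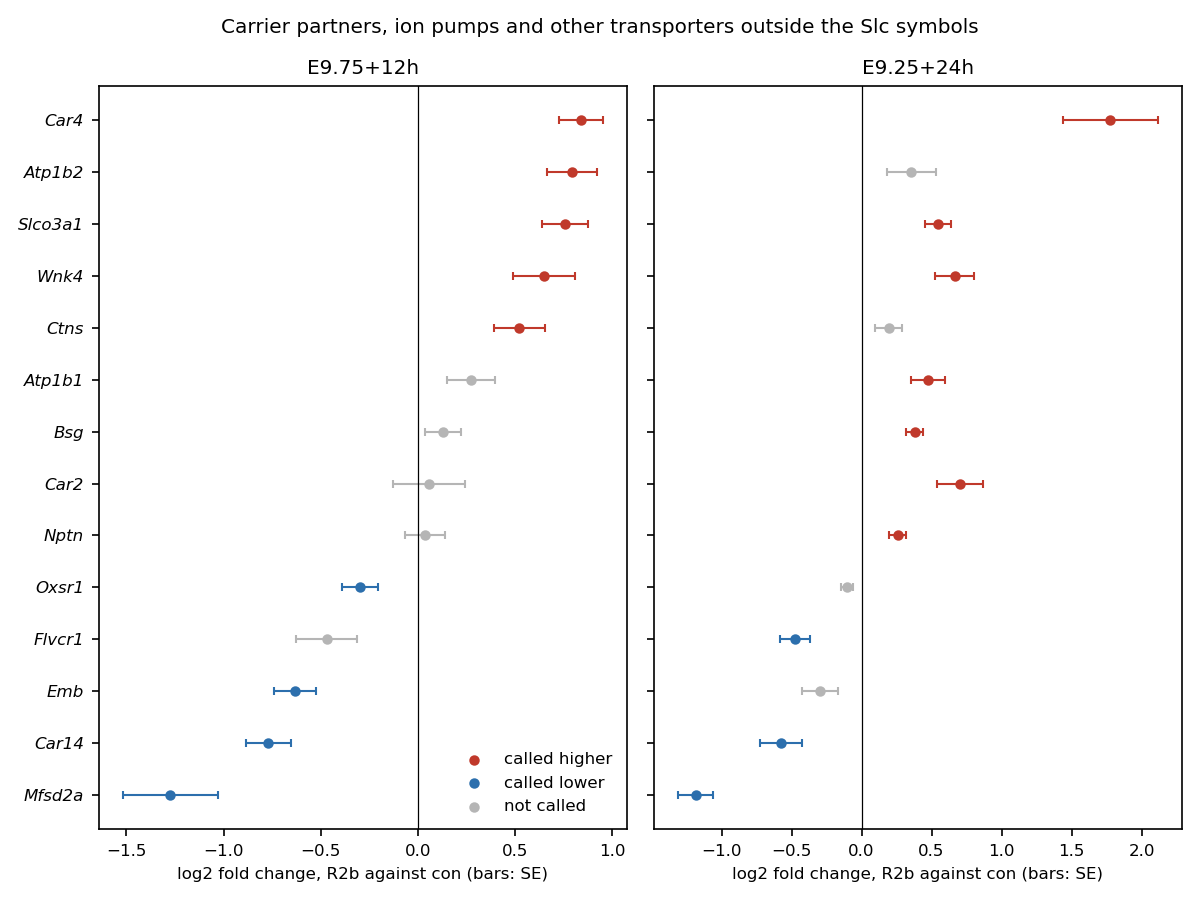
Log2 fold change of R2b against con (horizontal axis, bars are SE) for the carrier partners, ion pumps and other transporters without an Slc symbol that were called in at least 1 of these exposures and are named in the text, at 12 hours (left, titled E9.75+12h) and at 24 hours (right, titled E9.25+24h). Red genes were called higher, blue lower and grey were not called, with Car4 (0.84 and 1.78) and Slco3a1 higher and Mfsd2a (-1.28 and -1.19) and Car14 lower in both.

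Comparing exposures that ended at the same stage, 22 carriers were called the same way in both, 17 higher and 5 lower, and 0 in opposite ways. These are 47.8% of the calls at 12 hours and 46.8% of those at 24 hours, where 1295 genes in all were shared (43.6% and 55.5%). The sets have separate control pools. Carriers called higher in both were Slc1a3, Slc36a2, Slc43a2, Slc6a17, Slc7a4, Slc4a5, Slc9a9, Slc24a3, Slc24a4, Slc27a1, Slc39a5, Slc41a3, Slc16a4, Slc29a3, Slc35d2, Slc22a18 and Slc2a12, and those lower in both were Slc38a2, Slc43a1, Slc12a2, Slc20a1 and Slc35f3. Of the 22, 19 had every group at 2 CPM, 15 higher and 4 lower, and Slc41a3, Slc22a18 and Slc35f3 did not. Of the 22, 13 were called with the replicate block at 12 hours and 22 at 24 hours. In every fit without 1 pool, 12 remained at 12 hours and 11 at 24 hours, and 7 did so in both: Slc6a17, Slc29a3, Slc36a2, Slc35d2, Slc24a3, Slc43a2 and Slc2a12. The fitted change had the same sign in both exposures for 167 carriers (78.4%, beside 76.9% of all genes).

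**Figure D4:**
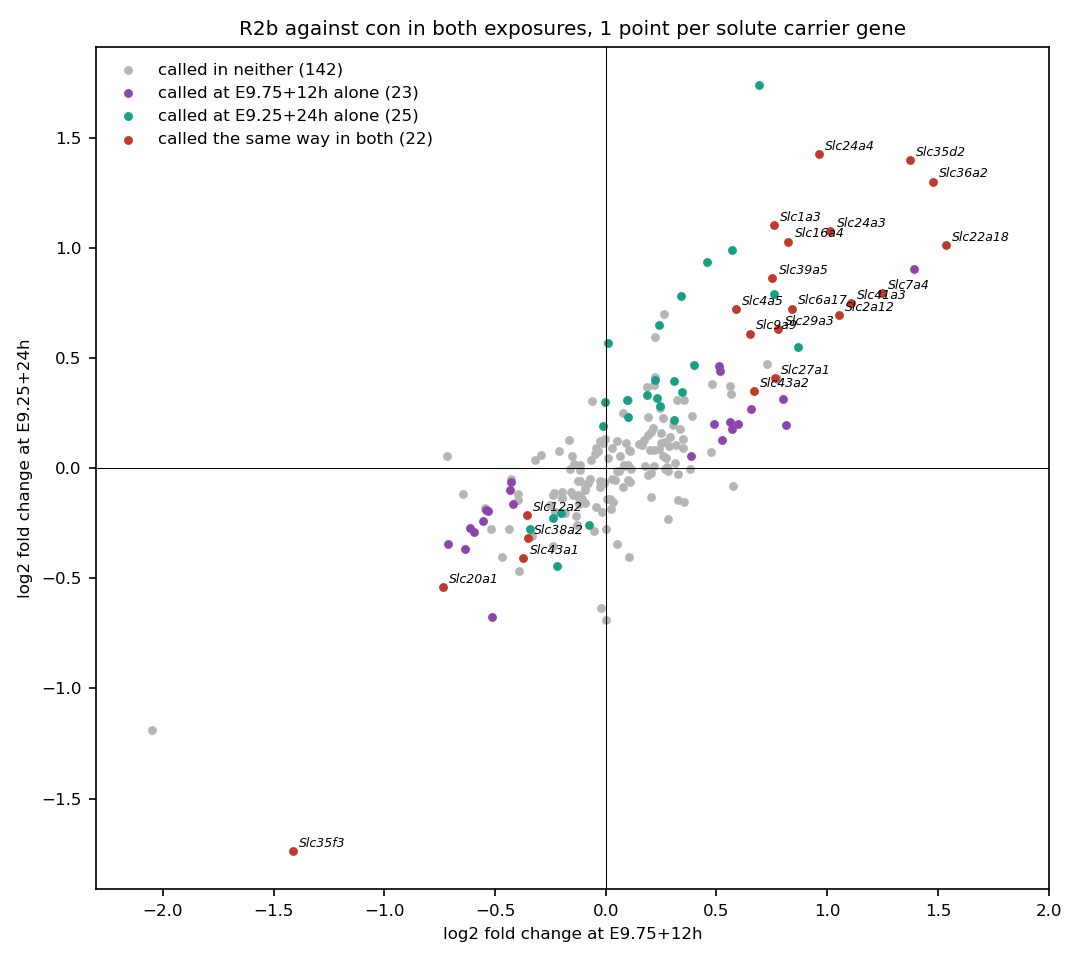
Log2 fold change of R2b against con at 12 hours (horizontal axis) and at 24 hours (vertical axis), 1 point per solute carrier gene tested in both. Red points, named, are the 22 called the same way in both, 17 at the upper right and 5 at the lower left, and 142 grey points were called in neither.

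A carrier called in 1 exposure and not in the other was not shown to differ between them. In the test of the difference of effects, 0 of 213 carriers passed between the 24-hour and 12-hour exposures and 0 of 213 between the late and 24-hour exposures, as did 0 of 15688 genes in both. The latter contrast used the late libraries as labelled. In late litter 1 the Ighg1 counts ran against the labels (15754 in con and 1504 in R2b), and con of litter 3 had 5106. That contrast therefore cannot decide whether effects differed between the late and 24-hour exposures. At an unadjusted p under 0.05 there were 10 carriers in the first contrast and 30 in the second, where 12.2% and 8.57% of all genes passed. DESeq2 gave 0 and 1 carriers by adjusted p. With no block, the first count was 7 without litter 2 of the 12-hour exposure, 4 without the R2b pool of that litter and 0 in each other fit without 1 pool or litter. With the replicate block it was 0 over all litters, 15 without that same litter and 2 without litter 1 of the late exposure.

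In the late exposure, 0 of 213 carriers were called (0.00% of 15203 genes), and 4 carriers and 175 genes (1.15%) had an unadjusted p under 0.05. DESeq2 called 0 carriers, with 5 at an unadjusted p under 0.05. The 3 carriers of smallest p were Slc35f3 (-0.75 ± 0.29, FDR 0.9999), Slc4a5 (2.12 ± 0.78, FDR 0.9999) and Slc5a3, the myo-inositol carrier (0.16 ± 0.07, FDR 0.9999). Slc4a5 had 4.57, 5.14, 3.86 and 4.69 CPM under the con label and 59.5, 8.05, 5.08 and 6.36 CPM under the R2b label, in litter order, so the mean difference came from the library labelled R2b of litter 1, while in the other litters R2b exceeded con by 0.39 to 0.64 on the log2 scale. Slc35f3 had 2.54, 4.12, 3.12 and 4.60 CPM against 2.76, 1.24, 2.59 and 1.85 CPM, lower in litters 2, 3 and 4.

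Litter by litter, the 22 carriers called the same way at the earlier exposures showed litter 1 against the rest. In litter 2 the R2b pool differed from the con pool in the earlier direction for 22 of 22, in litter 3 for 18, in litter 4 for 21, and in litter 1 for 2 (Slc2a12 and Slc4a5). Over all 1293 genes called the same way before and measured here the shares were 7.5%, 97.6%, 90.2% and 92.2% in litters 1 to 4. The median difference of the 22 in the earlier direction was -0.33, 0.58, 0.14 and 0.30 on the log2 scale in litters 1 to 4. Slc6a17 had 158, 119.6, 118 and 133 CPM under the con label and 109, 174, 138 and 165 CPM under the R2b label, again in litter order. Slc24a4 had 26.1, 10.5, 11.04 and 11.04 CPM and 12.7, 24.5, 14.3 and 22.4 CPM. In both genes litter 1 ran against the other 3.

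With the replicate block and without litter 1, 9 of the 213 carriers were called, near the share of all genes (614, or 4.04% of those tested). Higher were Slc6a17 (0.38, FDR 0.0382), Slc24a4 (0.89, FDR 0.0413), Slc24a3 (0.58, FDR 0.0447), Slc16a4 (0.89, FDR 0.028) and Slc30a4 (0.63, FDR 0.0198), each called higher at 24 hours. Higher too, and named after their values were seen, were the metal carrier Slc39a14 (0.69, FDR 0.027) and the sodium-calcium exchanger Slc8a1 (0.68, FDR 0.0416). Of these, Slc39a14 was also called higher at 24 hours, a call lost in 6 of 8 fits without 1 pool (FDR 0.0528 to 0.111), and Slc8a1 was not called there. Lower were Slc26a9 (-1.17, FDR 0.0241) and the amino acid carrier Slc38a4 (-0.41, FDR 0.038). Without litters 1 and 3, an alternative added after the transgene counts were seen, the block called 12 of the 213 carriers. Of all genes 877 were called (5.77%), so the share of carriers was again near that of all genes. That fit rested on litters 2 and 4 alone, which leaves little to estimate the spread. Slc29a3 (0.57, FDR 0.0226), Slc1a3 (0.38, FDR 0.0467), Slc44a4 (1.03, FDR 0.0408) and Slc35f3 (-1.49, FDR 0.0334) were among those 12 carriers.

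**Figure D5:**
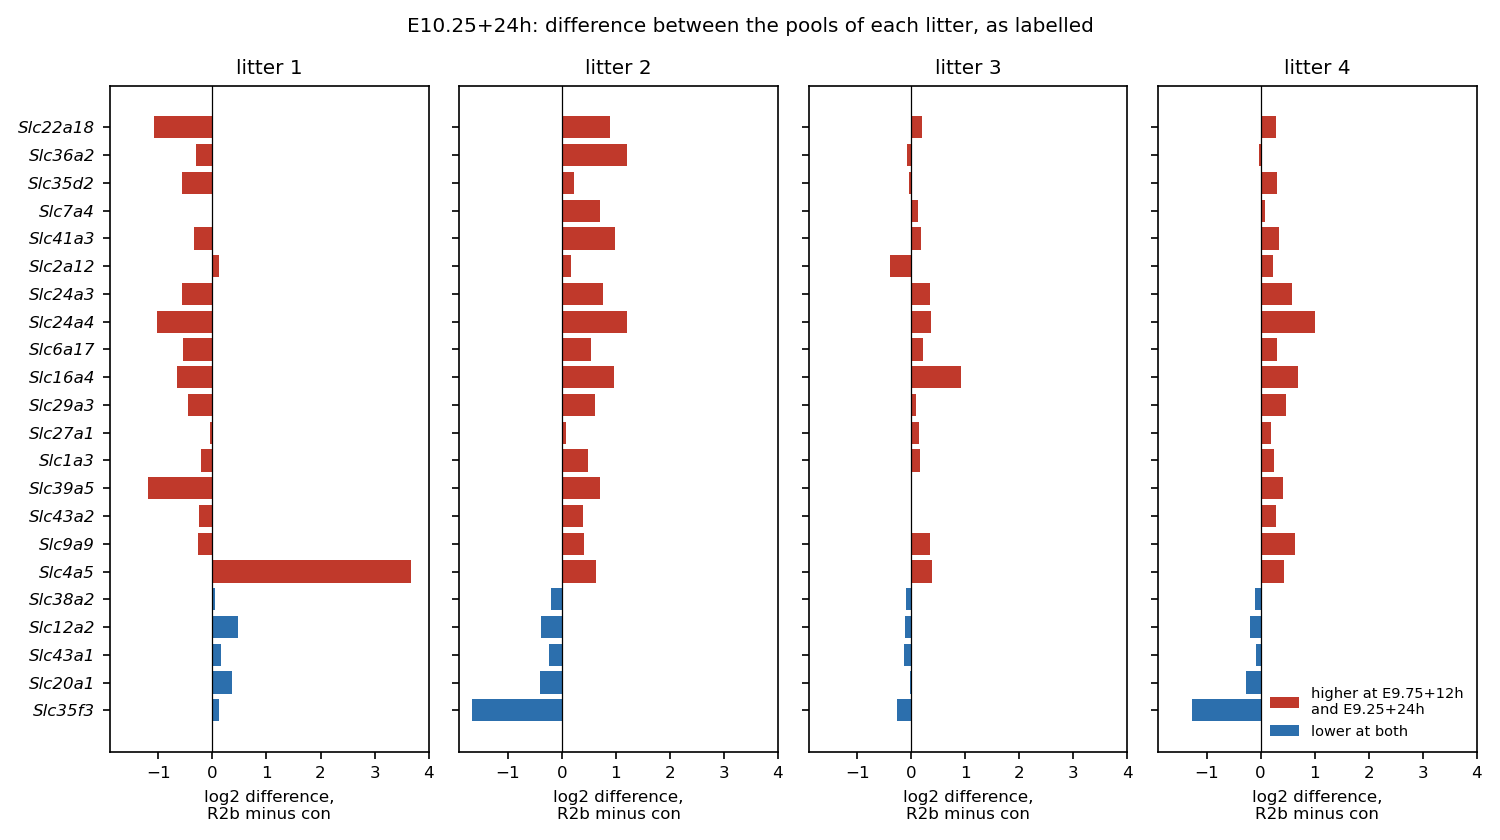
Log2 difference of CPM between the R2b and con pools of each litter in the late exposure, as labelled (horizontal axis), for the 22 carriers called the same way at both earlier exposures, red for those higher and blue for those lower there. In litters 2, 3 and 4 the bars point in the earlier direction for 22, 18 and 21 of 22 genes, and in litter 1 for 2.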

How the data were processed

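The authors deposited a table of raw counts per gene for each pool of otocyst epithelia. Libraries were made with a stranded, poly(A)-selected kit per the labels' protocols, and reads were aligned with Novoalign 2.08.03 to mm10 per the submitters' processing notes. The counting tool, its strand setting and its annotation are not given in the sources used here. Of 24 samples, 22 had a column, and 2 columns that match no sample were not used. Ensembl identifiers were paired with symbols through GENCODE M21 (15522 of 15736 matched and 214 did not).

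Within each exposure R2b was compared with con by the quasi-likelihood test of edgeR 4.0.16 in R 4.3.3, with TMM scaling and its filter on low counts, and p-values were adjusted over all genes tested by the Benjamini-Hochberg method. Differences of effects between exposures were tested in 1 fit over all libraries. CPM are computed here from the counts and TMM. The test was checked on simulated data. Alternatives were DESeq2 1.42.0, other scaling and filters, the litter as a replicate block, and fits without 1 pool or 1 litter. Gene by gene, these alternatives were followed for carriers only, and calls in the companion lists rest on the main fit.

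Pools of a litter come from the same pregnant female per the labels, so the numbers pair the samples. The deviations of paired pools from their group means correlated at -0.11, -0.24 and -0.25 at 12 hours, 0.42, 0.49, 0.77 and 0.75 at 24 hours, and -0.11, 0.39, 0.31 and 0.29 in the late exposure. Library totals (given with the results) limit precision for genes of a few CPM, and intervals cover counting error only. The members and lists were chosen with earlier results of these data known. Named genes are, per exposure, up to 2 called carriers per class with the smallest FDR, the 5 largest rises and 5 largest falls of the same sign in every litter, carriers called the same way in both early exposures, the 3 of smallest p where none was called, the most abundant per kb of each class, and the hearing list. Others are said to be named after their values were seen. Some genes counted in the totals and lists are not reported here by name. Slc4a1ap was moved to the genes that are not carriers after its values were seen, which changed no count of calls.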

Additional observations from a re-analysis of the deposited data

Results flagged for a closer look

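In 9 of 158 groups of 4 pools of named carriers, 1 pool stood apart from the other 3 by Dixon's criterion, and chance alone gives about 1 in 20 such groups. Among libraries of the late exposure, Slc4a5 had 59.52 CPM in the library labelled R2b of litter 1 (others 5.078 to 8.053), Slc44a4 had 9.051 CPM in the library labelled con of litter 1 (others 3.560 to 4.101), and Slc35a4 had 69.92 CPM in R2b of litter 4 (others 80.59 to 80.72). Among con pools of the 24-hour exposure, litter 4 had 136.4 CPM of Slc12a2 (others 122.4 to 123.8) and 20.57 CPM of Slc48a1 (others 24.36 to 24.85), and litter 2 had 2.633 CPM of Slc22a18 (others 1.437 to 1.640) and 10.38 CPM of Slc4a5 (others 8.761 to 9.002). Among R2b pools of the 24-hour exposure, litter 2 had 6.067 CPM of Slc40a1 (others 5.612 to 5.682) and litter 3 had 44.47 CPM of Slc43a2 (others 40.74 to 41.27).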

How the results depend on the processing

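With the replicate block the number of carriers called was 22 at 12 hours and 103 at 24 hours, beside 46 and 47 without it. With a change of at least 1.5-fold required it was 29 and 22. Without 1 pool or 1 litter and with no block it ranged from 5 to 65 at 12 hours and from 6 to 44 at 24 hours and was 0 in the late exposure. With the block and 1 litter left out, so that model and samples both changed, it ranged from 5 to 41, from 79 to 104 and from 0 to 9, and the block without litters 1 and 3 gave 12 in the late exposure. The number called the same way in both early exposures ranged from 4 to 25 without 1 pool or litter and from 5 to 32 with the block as well. Effects that differed between the 24-hour and 12-hour exposures numbered 0 to 7 and, with the block, 0 to 15. Those between the late exposure, as labelled, and the 24-hour exposure numbered 0 to 2 and 0 to 1, with 1 by DESeq2. The cause was not tested. DESeq2 called 53 carriers at 12 hours, among them all 46. Of the 46, 3 were called in every alternative, as were 3 of the 47 at 24 hours. Among the named carriers, no called value changed its direction in an alternative. With 3 or 4 litters a group, small changes of scarce carriers were not detectable.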
